A study of Salmo salar with 40 samples.

Results

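LOC106600841, described in the deposited table as nuclear factor erythroid 2-related factor 1-like (here NRF1-like), and LOC106564503, described there as kelch-like ECH-associated protein 1 (here keap1-like), are 2 of the 79140 gene entries counted in Atlantic salmon liver and 2 of the 30397 that passed the filter on low counts. They were picked by name, as stress regulators that stood out between exposed and control fish at day 8, so their day 8 difference is a description and carries no test. Lufenuron, an insect growth regulator of the benzoylurea class that salmon farms use against sea lice, was used at 5 mg/kg in the exposed fish and at 0 in the controls. The 4 groups of 10 fish each were exposed and control fish at day 8, which was 1 day after treatment ended, and exposed and control fish at day 14, which was 7 days after it ended. The labels do not say which fish shared a tank. The p-values therefore reflect how much these fish varied, and tank effects cannot be told apart from those of the groups.

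NRF1, encoded by nfe2l1 and unrelated to nuclear respiratory factor 1, is a CNC-type basic leucine zipper factor that in mammals is made at the endoplasmic reticulum membrane. There it is extracted, deglycosylated and cut, and then drives proteasome subunit genes and metabolic stress genes in the nucleus. KEAP1 is the cullin-3 adaptor that marks the related factor NRF2 for degradation until its cysteines are modified by electrophiles or oxidants, after which NRF2 induces glutathione, quinone and NADPH-supplying enzymes. In liver both systems are studied for their part in handling oxidants, foreign compounds and damaged protein. Salmon kept many gene copies after a whole-genome duplication, and both proteins have several entries in the table.

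The libraries held 43.4 M to 76.8 M counts (median 56.7 M) and 35996 to 39403 genes with at least 1 read. The defining hepatocyte genes, which encode albumin, apolipoproteins, fibrinogen and transferrin among others, summed to 116497 CPM or more in each fish (CPM is counts per 1 M counts of the library, after TMM scaling). The median sum at day 8 was 190326 CPM in exposed fish, against 182187 CPM in controls. At day 14 it had a median of 158476 CPM (116497 to 196880) in exposed fish and 191325 CPM (168081 to 237489) in controls, with 5 of the 25 entries tested higher in exposed fish and 0 past the threshold. The part of this in the day 14 values was not tested. Summed markers of exocrine pancreas, a tissue that lies along vessels near the salmon liver, had a median of 28.3 CPM (6.51 to 137) in exposed fish at day 8 and 9.27 CPM (6.82 to 89.7) in their controls. At day 14 they had a median of 45.2 CPM (6.37 to 219) in exposed fish and 10.4 CPM (6.07 to 116) in controls. Of the 49 pancreas entries, 11 were at 0 in all fish, among them copies of elastase, trypsin and carboxypeptidase A1, and 21 were tested, with 20 higher at day 8 and 19 higher at day 14 in exposed fish but 0 past the threshold. Of the day 14 controls, 3 were labelled 17 or 18 g (the light controls), against 35 to 66 g in the exposed fish of that day. Not all of these 3 were short: some had labelled lengths in the range of the heavier fish. Errors in the weight labels are therefore possible and could not be checked. In bulk liver, fewer cells of a type and less RNA per cell cannot be told apart.

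NRF1-like had the higher levels in exposed fish at day 8, with 17.4 CPM in the lowest fish, a median of 25.9 CPM and 33.2 CPM in the highest (874 to 1598 reads). The day 8 controls had 5.21, 7.72 and 14.6 CPM on the same measures (284 to 984 reads). The groups did not overlap, and every exposed fish lay above every control. Of the genes tested, 2 separated the groups this way upwards at day 8, or 0.00658%, and the other was brox, a BRO1-domain gene with a log2 fold change of 0.37. The means were 24.8 ± 4.92 CPM in exposed fish and 8.59 ± 2.96 CPM in controls (SD, n = 10 each). The fitted log2 fold change was 1.53 ± 0.24 (SE), which is 2.89-fold. Over all genes tested, 1.63% passed an adjusted p of 0.05 at day 8 (edgeR's quasi-likelihood test with Benjamini-Hochberg adjustment), 0.467% higher and 1.16% lower in exposed fish. Nothing is read from these shares for NRF1-like, since the same contrast chose it.

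At day 14, 7 days after the end of treatment, NRF1-like levels overlapped. Exposed fish had 5.19 CPM in the lowest, a median of 12.4 CPM and 18.0 CPM in the highest (378 to 1154 reads). Controls had 3.78, 7.08 and 19.6 CPM (222 to 835 reads). The highest of these fish was control fish 7, 1 of the 3 controls labelled light (18 g, a label in doubt), and 8 of 10 exposed fish lay above the control median. The means were 11.8 ± 4.11 CPM in exposed fish and 8.50 ± 4.81 CPM in controls (SD, n = 10 each). The log2 fold change was 0.47 ± 0.23 (SE), which is 1.39-fold, with a 95% interval of 0.016 to 0.93. It did not pass the test (unadjusted p = 0.0493, adjusted p = 0.622, edgeR's quasi-likelihood test). At this day 0 genes passed (0%), while the unadjusted p was under 0.05 for 2437 genes, or 8.02%, and 20 passed by DESeq2. The value rests in part on single fish, in both directions. Without control fish 7 the log2 fold change was 0.70 with an adjusted p of 0.317, and without exposed fish 3 it was 0.38.

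Between the days, NRF1-like was lower at day 14 in exposed fish, and the controls of both days had close means. The day 14 minus day 8 difference was -1.07 ± 0.23 on the log2 scale in exposed fish and -0.018 ± 0.23 in controls (SE). Of the exposed fish at day 14, 9 lay below the lowest exposed fish of day 8, and 2 lay above the highest control of day 8. The day 14 effect minus the day 8 effect was -1.06 ± 0.33. These values use the fish that chose the entry and carry no test. The spread between fish, as a coefficient of variation, was 19.8% in exposed and 34.5% in control fish at day 8, and 34.9% in exposed and 56.6% in control fish at day 14.

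Keap1-like had a smaller day 8 difference, with overlap. Exposed fish had 14.8 CPM in the lowest, a median of 23.5 CPM and 29.3 CPM in the highest (626 to 1499 reads). Controls had 9.31, 17.1 and 24.4 CPM (519 to 1382 reads). Of the 10 exposed fish, 9 lay above the control median and 4 above the highest control. The exposed fish with the lowest keap1-like level, fish 3, had an NRF1-like level of 28.9 CPM, above its group's median. This fish stood apart in its summed gut epithelium markers, with 333 CPM, where exposed fish of day 8 had a median of 60.4 CPM and controls one of 50.2 CPM, and its pancreas markers summed to 114 CPM. Of the 10 gut entries tested, 8 were higher in exposed fish at day 8 and 0 passed. The means were 23.4 ± 4.43 CPM in exposed fish and 16.9 ± 3.86 CPM in controls (SD, n = 10 each), and the log2 fold change was 0.47 ± 0.12 (SE), which is 1.38-fold.

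At day 14 the keap1-like levels of the groups overlapped, with the same median to the first decimal. Exposed fish had 15.1 CPM in the lowest, a median of 18.1 CPM and 26.0 CPM in the highest. Controls had 16.6, 18.1 and 24.0 CPM. Here 5 of 10 exposed fish lay above the control median. The log2 fold change was 0.041 ± 0.12 (SE), with a 95% interval of -0.20 to 0.28, and it did not pass the test (adjusted p = 0.959, edgeR's quasi-likelihood test). It turned to -0.00661 without exposed fish 3 and to -0.023 without exposed fish 4 of that day. The day 14 minus day 8 difference was -0.30 ± 0.12 in exposed fish and 0.13 ± 0.12 in controls (SE, log2 scale), and the day 14 effect minus the day 8 effect was -0.43 ± 0.17, with no test.

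**Figure D1:**
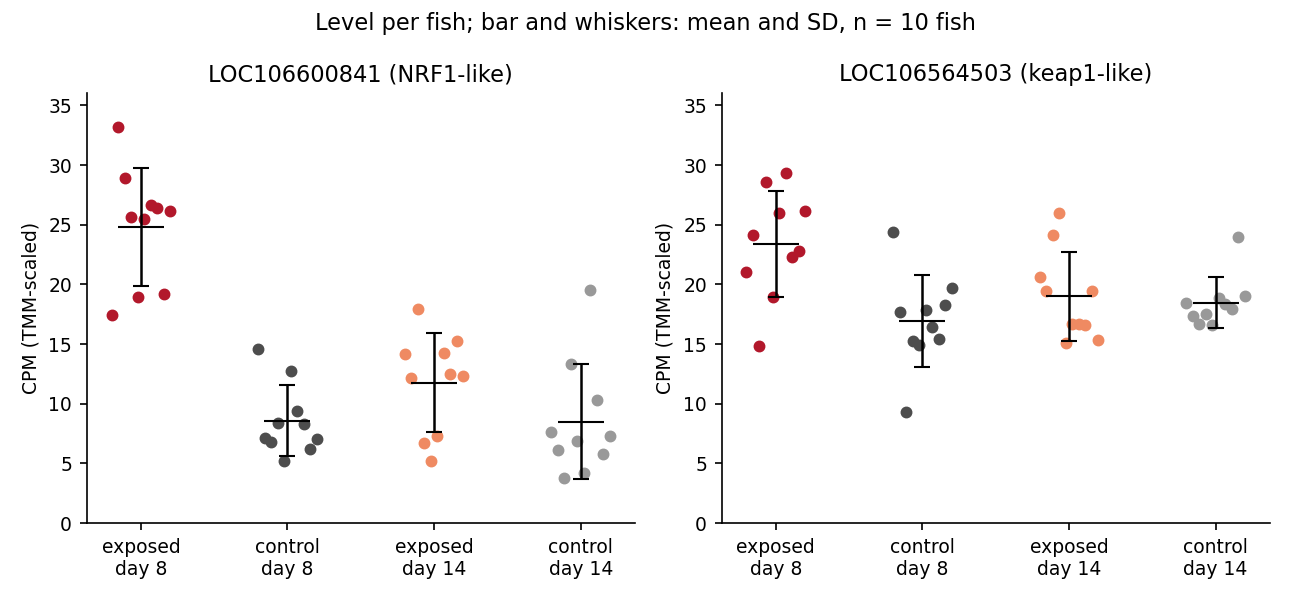
Levels of NRF1-like (left) and keap1-like (right) in CPM for each fish, with the mean and SD of each group of 10. The 10 exposed fish of day 8 lie above all day 8 controls for NRF1-like (17.4 CPM at the lowest against 14.6 CPM at the highest), while all other pairs of groups on the same day overlap.

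Without the 10 fish whose pancreas markers exceeded 50 CPM (3 exposed and 1 control at day 8, 5 exposed and 1 control at day 14), NRF1-like had log2 fold changes of 1.47 at day 8 and 0.56 at day 14, and keap1-like had 0.52 at day 8. Without the 3 light controls the day 14 value of NRF1-like was 0.61 (adjusted p = 0.386).

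The 5 other NRF1 entries had day 8 log2 fold changes from -0.34 to 0.12, below the 1.53 of NRF1-like. LOC106570514 had a mean of 4.61 ± 1.35 CPM in exposed fish and 5.82 ± 1.27 CPM in controls at day 8 (SD, n = 10 each), with a log2 fold change of -0.34 ± 0.14 (SE, adjusted p = 0.213). LOC106588843 had 3.18 ± 0.65 CPM in exposed fish and 4.01 ± 0.93 CPM in controls (SD), with -0.33 ± 0.12 (SE, adjusted p = 0.156). In each of these entries 1 of 10 exposed fish lay above the control median, the opposite side from NRF1-like. LOC106589287 had a log2 fold change of -0.012 ± 0.08, LOC106607482 one of -0.0058 ± 0.22, and the entry with the symbol nfe2l1, whose description is cut to "nuclear factor", one of 0.12 ± 0.07. None of the 5 passed the test at either day (edgeR's quasi-likelihood test), and a difference between them and NRF1-like was not tested, since the day 8 contrast chose it.

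At day 14, LOC106570514 had 9.28 ± 1.09 CPM in exposed fish and 7.55 ± 1.69 CPM in controls (SD), a log2 fold change of 0.30 ± 0.14 (SE) that did not pass (adjusted p = 0.600), with 9 of 10 exposed fish above the control median. The other 4 had values from -0.042 to 0.21. From day 8 to day 14, the fitted differences of all 5 were positive in both arms, while NRF1-like was lower at day 14 in exposed fish. LOC106588843 was higher at day 14 by 1.30 ± 0.13 in exposed fish and by 0.92 ± 0.12 in controls (SE, log2 scale). Its exposed fish had 1.90 to 4.31 CPM at day 8 and 5.68 to 9.54 CPM at day 14. LOC106570514 was higher by 1.01 ± 0.14 in exposed fish and by 0.38 ± 0.14 in controls. LOC106589287 was higher by 0.32 ± 0.08 in exposed fish and by 0.35 ± 0.08 in controls, and nfe2l1 by 0.25 ± 0.07 in exposed fish and by 0.31 ± 0.07 in controls. LOC106607482 had 0.39 ± 0.22 in exposed fish and 0.17 ± 0.22 in controls. These day differences are given as values with no test.

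All 4 other KEAP1 entries had positive log2 fold changes at day 8, and none passed the test. LOC106574506, whose reference symbol is keap1a, had 46.4 ± 12.7 CPM in exposed fish and 39.9 ± 10.4 CPM in controls (SD, n = 10 each), a log2 fold change of 0.22 ± 0.17 (SE, adjusted p = 0.572). LOC106590064 had 16.4 ± 3.98 CPM in exposed fish and 13.1 ± 3.80 CPM in controls, with 0.32 ± 0.15 (SE, adjusted p = 0.285). The remaining entries, LOC106597386 and LOC106597457, had means under 1 CPM in each group, and log2 fold changes of 0.40 ± 0.50 and 0.73 ± 0.40. The value of LOC106597386 was -0.21 without exposed fish 4 and 1.41 without control fish 10 of day 8, so its sign rests on single fish. The median of the 4 at day 8 was 0.36, and over all genes tested it was 0.0052. At day 14 the 4 values ran from -0.39 to 1.29, with 2 above 0. The highest was that of LOC106597457 (1.29 ± 0.40 SE, adjusted p = 0.437), in which exposed fish 3 had 1.40 CPM and the next fish 0.343 CPM, and without fish 3 it was 0.56. How reads shared by near-identical copies were assigned is unknown here, and values of single copies are uncertain.

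**Figure D2:**
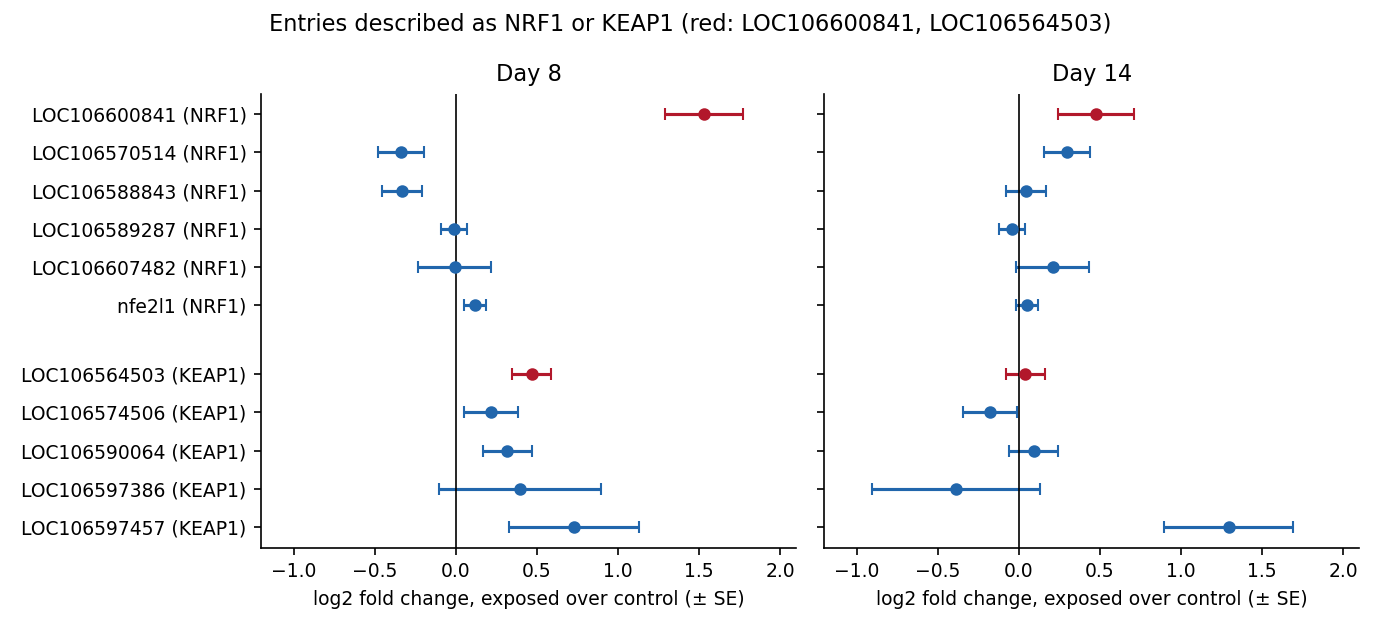
Fitted log2 fold change of exposed over control fish with its SE at day 8 (left) and day 14 (right) for the entries described as NRF1 or KEAP1, with NRF1-like and keap1-like in red. At day 8 NRF1-like stands at 1.53 while the other NRF1 entries lie between -0.34 and 0.12.

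**Figure D3:**
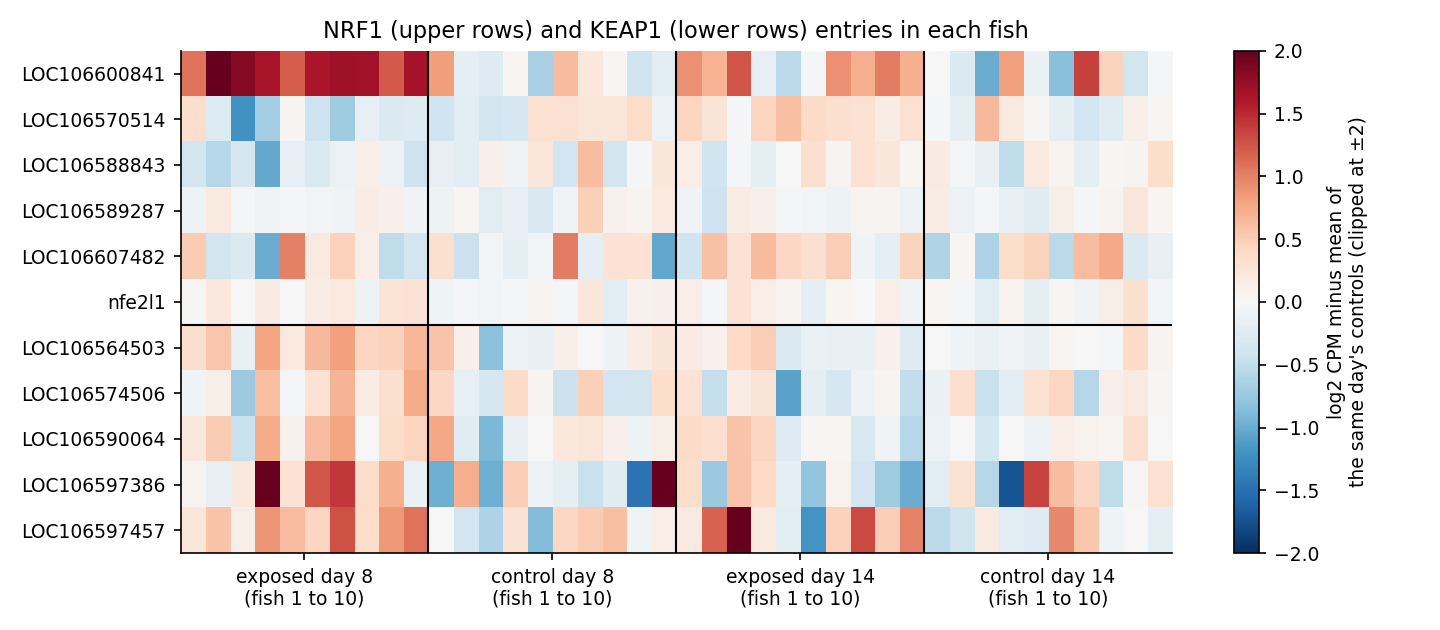
Log2 CPM of each NRF1 entry (above the line) and KEAP1 entry (below it) in each fish, minus the mean of the controls of the same day, with fish 1 to 10 of each group from left to right. The row of LOC106600841 is above its control mean in all 10 exposed fish of day 8, and that of LOC106564503 in 9 of them.

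Among the related factors, the NRF2 entries had day 8 log2 fold changes from 0.034 to 0.20. LOC106586247, whose reference symbol is nfe2l2a, had 41.5 ± 5.48 CPM in exposed fish and 40.5 ± 6.19 CPM in controls at day 8 (SD, n = 10 each), a log2 fold change of 0.034 ± 0.10 (SE). The entry nf2l2 had 31.4 ± 6.99 CPM in exposed fish and 27.3 ± 3.65 CPM in controls, with 0.20 ± 0.10 (SE, adjusted p = 0.289), and LOC106575067 had 0.049 ± 0.17. The BACH factors are CNC proteins that repress many of the same sites. Over their 6 tested entries the day 8 values ran from -0.84 ± 0.42 for bach2 to 0.49 ± 0.31 for LOC106571989 (SE). Between them, bach1 had 0.21 ± 0.27 at day 8. LOC106594198 had 0.0086 ± 0.27 at day 8 and 0.00043 ± 0.26 at day 14. LOC106604041 had 0.17 ± 0.31 at day 8 and 0.10 ± 0.30 at day 14. The day 14 values ran from -0.22 ± 0.28 for bach1 to 1.33 ± 0.43 for bach2 (SE). The BACH2-like LOC106610754 had 5.58 ± 2.31 CPM in exposed fish and 2.81 ± 2.17 CPM in controls at day 14 (SD). Its log2 fold change was 0.99 ± 0.30 (SE, adjusted p = 0.437), with 9 of 10 exposed fish above the control median. Without the 3 light controls it was 0.73, and at day 8 it was -0.30 ± 0.30. The entry bach2, whose description is BTB and CNC homology 1, had at most 38 reads in a fish, and LOC106571989 at most 26. The NF-E2 entries LOC106567066 and LOC106572584 had 0.10 and -0.035 at day 8, and 0.021 ± 0.28 and -1.03 ± 0.41 (SE) at day 14. At day 14 LOC106572584 had 1.47 ± 0.50 CPM in exposed fish and 2.99 ± 3.31 CPM in controls (SD). Without control fish 2 of that day its log2 fold change was -0.62. None of these entries passed the test at either day (edgeR's quasi-likelihood test), and a further BACH2-like entry, LOC106571332, with 212 reads in all, was not tested.

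Within groups, keap1-like was set against its counterparts, the other KEAP1 entries, and went with 2 of them from fish to fish in some groups. With LOC106590064 the Pearson r of log2 CPM over 10 fish was 0.951 in exposed and 0.877 in control fish at day 8, and 0.857 in exposed and 0.792 in control fish at day 14. Spearman's rho was 0.927, 0.600, 0.867 and 0.685 in the same groups. Over the 36 relations tested, permutation p-values adjusted for all of them were 0.00324 and 0.0487 in exposed and control fish at day 8, and 0.024 and 0.0512 in exposed and control fish at day 14. Without the 2 fish farthest from the median, r was 0.859 and 0.094 in exposed and control fish at day 8, and 0.808 and 0.672 in exposed and control fish at day 14. The relation in day 8 controls therefore rests on those fish, of which fish 3 had the lowest keap1-like level, and it missed the threshold without any 1 of control fish 1, 3, 4, 6 and 10 (r 0.697 to 0.886). With LOC106574506, r was 0.940 in exposed fish at day 8 (rho 0.891, adjusted permutation p = 0.00432, r 0.824 without the 2 farthest fish) and 0.759 in exposed fish at day 14 (rho 0.855, adjusted permutation p = 0.0489, r 0.716 without them). The day 14 relation missed the threshold by total counts alone (r 0.751) and without any 1 of exposed fish 1, 3, 4, 5, 6, 7, 9 and 10 (r 0.724 to 0.776). In controls r was 0.378 at day 8 and 0.197 at day 14, and neither passed (adjusted permutation p = 0.508 and 0.734). A difference in r between exposed and control fish was not tested.

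Of these relations with counterparts, 5 of 16 passed for keap1-like and 2 of 20 for NRF1-like. For NRF1-like, r with LOC106570514 was negative in all 4 groups, at -0.629 in exposed and -0.199 in control fish at day 8, and -0.804 in exposed and -0.514 in control fish at day 14. The day 14 exposed value passed (rho -0.733, adjusted permutation p = 0.0332) and was -0.634 without the 2 farthest fish. It did not pass by total counts alone (-0.524, adjusted permutation p = 0.347) or without exposed fish 5 (-0.689, adjusted permutation p = 0.159). With LOC106607482 r was -0.439 in exposed and 0.508 in control fish at day 8, and -0.422 in exposed and 0.765 in control fish at day 14. The last passed (rho 0.697, adjusted permutation p = 0.0489, r 0.708 without the 2 farthest fish), but not by total counts alone (0.735, adjusted permutation p = 0.0667) or without any 1 of control fish 2, 3, 4, 6, 7, 8, 9 and 10 (0.708 to 0.778). In all, 7 of the 36 relations passed, 6 of them positive and 1 negative. Near-identical copies can share reads, and the part of this in the correlations was not tested.

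NRF1-like and keap1-like did not go together beyond the spread between fish. Their r was 0.172 in exposed and 0.484 in control fish at day 8 (rho 0.212 and 0.394), and 0.213 in exposed and -0.075 in control fish at day 14 (rho 0.321 and 0.018). The permutation p-values adjusted over the 4 groups were 0.831, 0.647, 0.831 and 0.831. Without the 2 fish farthest from the NRF1-like median, r was -0.143 and 0.072 in exposed and control fish at day 8, and 0.595 and 0.014 in exposed and control fish at day 14.

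**Figure D4:**
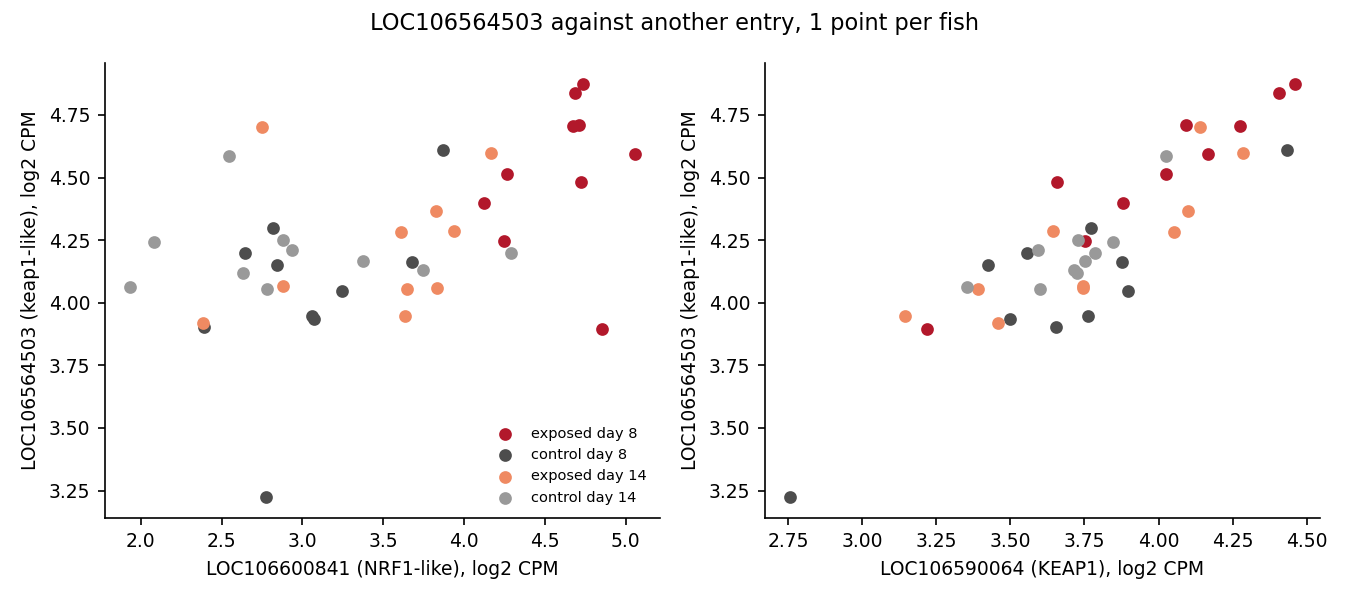
Log2 CPM of keap1-like against NRF1-like (left) and against the KEAP1 entry LOC106590064 (right), with 1 point per fish and a colour per group. At day 8, r was 0.951 in exposed and 0.877 in control fish on the right, and 0.172 in exposed and 0.484 in control fish on the left.

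Over all 40 fish, with group means taken off, the 5 genes most like keap1-like were LOC106590064 (r 0.885), a probable E3 ubiquitin ligase DTX2 entry (LOC106567555, 0.692), the glutathione S-transferase A entry gsta (0.689), an eva-1 homolog B-like entry (LOC106605123, 0.674) and a NADP-dependent malic enzyme-like entry (LOC106605032, 0.665). Those most like NRF1-like were dedd2, which encodes a DNA-binding death effector domain protein (0.731), a myotubularin-related protein 11-like entry (LOC106605290, 0.726), a BNIP3-like entry (LOC106560822, 0.715), arhgap18 (0.684) and a TFIID subunit 9-like entry (LOC106603584, 0.680). The genes named for NRF1-like are none of its counterparts, none of its processing factors and no proteasome subunit. Processing factors and subunits are only 37 and 110 of the 30397 genes tested. Their absence among 5 genes is therefore not read as a result. These 10 values are descriptions over libraries of the same groups and carry no p. None of the 10 genes passed the test at either day.

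Of the 336 entries on the 10 lists of CNC factors, partners, processing enzymes and known targets, 277 were tested. At day 8, 0 rose and 1 fell (0.361%, against 1.63% of all genes tested), and at day 14, 0 passed. The median log2 fold change over these entries was -0.035 at day 8 and -0.084 at day 14, with medians over all genes of 0.0052 and 0.0042. Proteasome subunits made up 110 of these 277 entries, with 20 above 0 and 90 below at day 8. All lists together had 116 above and 161 below, so the pooled day 8 median leans on the subunits. At an unadjusted p under 0.05, 15 of the 277 entries were higher and 16 lower in exposed fish at day 8, and 8 were higher and 16 lower at day 14. Over all genes tested, 4884 (16.1%) had such a p at day 8 and 2437 (8.02%) at day 14 (edgeR's quasi-likelihood test).

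The entry that fell belongs to the enzymes and partners that process or turn over NRF1. LOC106582878 is host cell factor 1-like, and host cell factor 1 works with the sugar transferase OGT in mammals. It had 3.21 ± 0.81 CPM in exposed fish and 5.74 ± 1.91 CPM in controls at day 8 (SD, n = 10 each), a log2 fold change of -0.84 ± 0.22 (SE, adjusted p = 0.0404, edgeR's quasi-likelihood test). In 0 of 10 exposed fish was it above the control median. At day 14 it had 10.8 ± 3.55 CPM in exposed fish and 9.33 ± 3.03 CPM in controls (log2 fold change 0.21). The call did not hold without the fish of high pancreas markers (-0.84, adjusted p = 0.0972), where 71 genes in all were called in place of 494. It was also lost with no filter on low counts (-0.84, adjusted p = 0.0561) and with the replicate number as a block (-0.83, adjusted p = 0.0603). It also missed the threshold without any 1 of exposed fish 1, 2, 4, 6, 9 and 10 or control fish 3, 5, 7 and 9 of day 8 (-0.87 to -0.75, adjusted p 0.0516 to 0.0878). Of the 37 entries tested in this group, 19 were above and 18 below 0 at day 8.

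Proteasome subunit genes, the best known NRF1 targets in mammals, did not pass the test in either direction at either day (0 of 110, against 1.63% of all genes at day 8). At day 8, 20 of the 110 tested were above 0 and 90 below, with a median of -0.097. The entries with the smallest p were both described as proteasome activator complex subunit 3-like. That protein is a nuclear activator of the core particle and not itself a subunit of it, so the list also holds activators. LOC106607192 had 1.27 ± 0.55 CPM in exposed fish and 2.47 ± 0.93 CPM in controls (SD, n = 10 each), with -0.96 ± 0.27 (SE, adjusted p = 0.0562). LOC106601269 had 2.40 ± 0.48 CPM in exposed fish and 3.96 ± 1.17 CPM in controls, with -0.73 ± 0.21 (SE, adjusted p = 0.0654). Both were called lower at day 8 by DESeq2 and with scaling by total counts, LOC106601269 also with the day 8 fish alone. Leaving out single fish brought LOC106607192 past the threshold in 9 of 40 cases and LOC106601269 in 4 of 40. At day 14, 18 subunits were above 0 and 92 below, with a median of -0.14. That direction turned without the 10 fish of high pancreas markers, where 60 of 111 were above 0 (median 0.016). Scaling by total counts alone moved the median of all genes to 0.19 at day 14 and that of the subunits to 0.040. Relative to all genes the subunits had a median of -0.14 under that scaling and -0.14 in the fit reported. At day 8 the median relative to all genes was -0.10 in the fit reported, by total counts and without those 10 fish.

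The 4 NRF2 target groups gave 0 calls among 86 entries tested at either day, where 1.63% of all genes passed at day 8 and 0% at day 14. For NADPH supply, 13 of 16 were above 0 at day 8 (median 0.23), and 7 of 16 at day 14 (median -0.063). Its leading entry, LOC106583951, a NADP-dependent malic enzyme, had 137 ± 25.9 CPM in exposed fish and 97.5 ± 22.9 CPM in controls at day 8 (SD, n = 10 each), with a log2 fold change of 0.49 ± 0.14 (SE, adjusted p = 0.0646). It passed by DESeq2 and without any 1 of exposed fish 3 and 5 and control fish 1 of day 8. The glucose-6-phosphate dehydrogenase-like entry LOC106572705 had 1.21 ± 0.48 (SE, adjusted p = 0.183). For glutathione and thioredoxin enzymes 14 of 22 were above 0 at day 8 (median 0.054), and without the fish of high pancreas markers 10 of 22 (median -0.020). Here gsh0, the regulatory subunit of glutamate-cysteine ligase, had -0.33 ± 0.14 (adjusted p = 0.231) and thioredoxin reductase 1 (LOC106583642) had 0.16 ± 0.09 (adjusted p = 0.392).

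For quinone, haem and iron enzymes 9 of 22 were above 0 at day 8 (median -0.050). The epoxide hydrolase 1-like entry LOC106571450 had -0.79 ± 0.23 (SE, adjusted p = 0.0637). Its levels at day 8 were 0.57 ± 0.18 CPM in exposed fish and 0.98 ± 0.31 CPM in controls (SD). It passed by DESeq2, by total counts and in 5 of 40 cases of a single fish left out. The carbonyl reductase-like entry LOC106563632 had 0.68 ± 0.30 (adjusted p = 0.231). For conjugation and export 18 of 26 were above 0 (median 0.099). The microsomal glutathione S-transferase 3-like entry LOC106600407 had 0.25 ± 0.12 (adjusted p = 0.306). The entry like the exporter MRP4, LOC106574545, had -1.34 ± 0.48 (adjusted p = 0.135). Its levels were low, with 0.26 ± 0.26 CPM in exposed fish and 0.65 ± 0.50 CPM in controls at day 8 (SD). It was called in 1 of 40 cases of a single fish left out, without exposed fish 3 of day 8 (-1.85, adjusted p = 0.0351). No other setting called it.

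Among partners of KEAP1, the entries with the smallest p at day 8 were those of sequestosome 1 (p62), the autophagy receptor that binds KEAP1 and is itself an NRF2 target. The entry sqstm1 had 37.9 ± 13.4 CPM in exposed fish and 25.5 ± 5.51 CPM in controls (SD, n = 10 each), with 0.57 ± 0.19 (SE, adjusted p = 0.103). The entry sqstm had 295 ± 145 CPM in exposed fish and 207 ± 39.7 CPM in controls, with 0.51 ± 0.20 (SE, adjusted p = 0.178), and without exposed fish 7 the value was 0.29. At day 14 sqstm1 had 0.047 and sqstm -0.29. Of the 20 ligase and competitor entries tested, 8 were above 0 at day 8 (median -0.093). Small MAF proteins, the obligate dimer partners of CNC factors, had 2 of 4 entries above 0 at day 8, from -0.57 for the MafG-like LOC106592261 to 0.45 for the MafK-like LOC106601120, and 0 of 4 above 0 at day 14. The MafG-like and MafK-like entries had means under 1 CPM in each group.

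**Figure D5:**
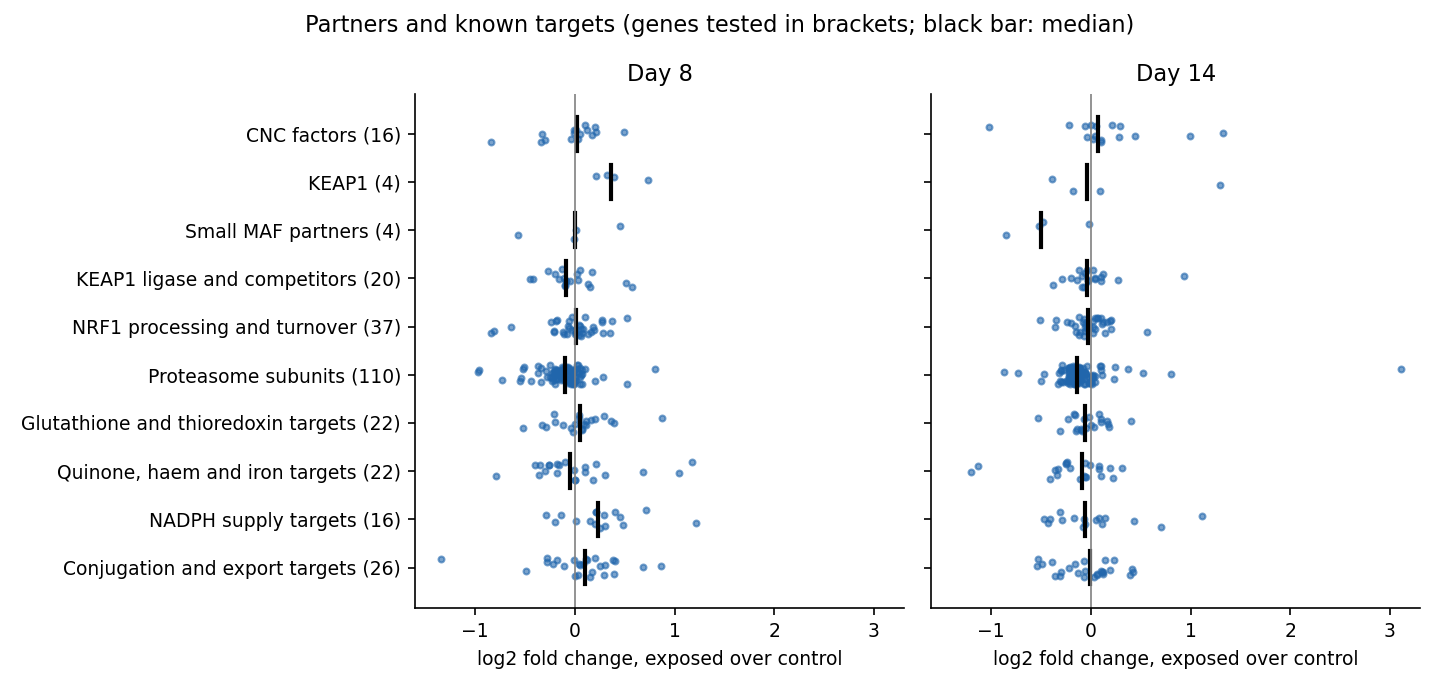
Log2 fold change of exposed over control fish at day 8 (left) and day 14 (right) for each tested entry of the 10 lists, with a black bar at each list's median. The medians at day 8 run from -0.097 for proteasome subunits to 0.36 for the 4 other KEAP1 entries.

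From fish to fish within groups, NRF1-like and keap1-like had negative r with more of the proteasome subunits than positive r. The median r with the 110 subunits was -0.086 for NRF1-like, with 26.4% above 0, and -0.14 for keap1-like, with 18.2% above 0. With all genes tested the median was -0.0057 for NRF1-like (49.0% above 0) and -0.0087 for keap1-like (48.3% above 0). With the NADPH supply entries the median r was -0.080 for NRF1-like (4 of 16 above 0) and 0.18 for keap1-like (14 of 16 above 0), and with the glutathione and thioredoxin entries it was -0.14 for NRF1-like (6 of 22 above 0) and 0.13 for keap1-like (15 of 22 above 0). These are descriptions over 40 libraries with group means taken off, and carry no p.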

How the data were processed

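Liver poly-A RNA of 40 fish was sequenced, with 10 fish in each of 4 groups taken from the labels. The values the authors deposited are raw counts of reads per gene entry, not normalized. HISAT2, Cufflinks, HTSeq and DESeq2 are listed, with no role or version, in the submitters' processing notes. Which build, annotation and strand setting were used is not given in the sources used here, and no coordinates are printed. Symbols beside the identifiers come from the deposited table or the RefSeq table of Ssal_v3.1. Transcript lengths and sequences were not used here, so levels were compared only within an entry.

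Genes were kept by filterByExpr (minimum count 10, minimum total 15), which left 30397 genes and 99.9% of the counts; 29369 entries had no counts. All 40 fish entered 1 robust quasi-likelihood fit in edgeR 4.0.16 (R 4.3.3), with TMM scaling and a mean for each group. SE came from the F statistic, and p-values were adjusted over all genes at 0.05. The common BCV (biological coefficient of variation) was 0.371. CPM uses TMM-scaled totals, and 43.4 M to 76.8 M counts a fish make counting error small beside the spread between fish at the levels of both entries. Correlations used log2 CPM (prior count 2) and 100000 two-sided permutations (numpy 2.4.6), with p-values adjusted in scipy 1.17.1. Fewer permutations were used for NRF1-like with keap1-like where single fish were left out. Intervals are 95%. Alternatives included DESeq2 1.42.0. The fit was also run on simulated counts of independent fish with known changes, whose outcome is not printed here. Those counts held no tank or tissue differences, so that run cannot speak to them.

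The entries described, the 10 lists and the marker lists were chosen with earlier results of these data known, and list names were matched to the table's descriptions after it was seen. Named were both entries, every entry of their families, up to 4 called members of each other list (2 by the smallest day 8 p where none was called) and the 5 genes most like each entry with a mean of at least 1 CPM. LOC106597457 and brox are among few entries named for a count. Each library is a different fish, and shared replicate numbers were not taken as pairs in the fit reported. All 780 pairs of libraries differed beyond counting noise.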

Additional observations from a re-analysis of the deposited data

Results flagged for a closer look

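In 7 of the 44 group distributions examined (11 NRF1 and KEAP1 entries in 4 groups of 10 fish), 1 fish stood apart from the rest by Dixon's test at its 95% critical value for the gap over the range. Chance gives about 1 in 20 for independent values with a normal distribution. These CPM values were not transformed and the entries share the same fish, so 7 of 44 is not read as an excess. Keap1-like had 24.0 CPM in control fish 9 of day 14, and the next fish had 19.0 CPM. That fish is also the day 14 control with the highest pancreas markers (116 CPM), whose part in the value was not tested. Among the NRF1 entries, LOC106570514 had 11.7 CPM in control fish 3 of day 14 (next 8.47 CPM), LOC106589287 had a low 11.9 CPM in exposed fish 2 of day 14 (next 14.6 CPM), and LOC106607482 had 3.89 CPM in control fish 6 of day 8 (next 2.37 CPM). The KEAP1 entry LOC106597386 had 2.67 CPM in exposed fish 4 (next 0.813 CPM) and 2.85 CPM in control fish 10 (next 0.489 CPM) of day 8. The KEAP1 entry LOC106597457 had 1.40 CPM in exposed fish 3 of day 14 (next 0.343 CPM). In none of the groups did NRF1-like have such a fish.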

How the results depend on the processing

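The day 8 log2 fold change of NRF1-like ran from 1.44 to 1.56 over 9 other settings and from 1.46 to 1.65 with single fish left out; that of keap1-like ran from 0.40 to 0.52 and from 0.38 to 0.54. At day 14 NRF1-like ran from 0.48 to 0.69 and from 0.38 to 0.70, and keap1-like from 0.045 to 0.22 and from -0.023 to 0.087; it reversed to -0.00661 and -0.0234 without exposed fish 3 and 4 of that day. Neither passed at day 14 where an adjusted p was given (0.159 to 0.937 for NRF1-like), and DESeq2 gave none for either. The day 14 minus day 8 effect ran from -1.17 to -0.75 for NRF1-like and from -0.50 to -0.17 for keap1-like. Total counts alone moved the median of all genes to -0.062 at day 8 and 0.19 at day 14.

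List entries called at day 8, 1 of 494 genes called in the fit reported, were 4 of 556 by total counts, 0 of 402 with no filter, 6 of 1048 by DESeq2, 2 of 479 with the day 8 fish alone, 0 of 71 without the fish of high pancreas markers, 2 of 514 without the 3 light controls, and 0 to 6 with single fish left out, where 128 to 1246 genes were called. The day 8 calls by DESeq2, without the 3 light controls and with some single fish left out included LOC106565771. It fell, and it is not among the single genes followed below. At day 14 DESeq2 called 1 of 20, LOC106586335, which fell, and leaving out single fish gave 0. The cause of these changes was not tested. With the replicate number as a block the day 8 count was 0 of 231, and NRF1-like had 1.56 at day 8 and 0.52 at day 14. Same-numbered exposed and control fish had r of -0.068 to 0.297 at day 8 and -0.191 to 0.116 at day 14. At day 8, 2 exposed fish were most like the control of their own number, and at day 14, 0. These values cannot exclude something shared by number, and the fit reported used no pairing.

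The correlation of the 2 entries ran from 0.037 to 0.622 in exposed and 0.202 to 0.561 in control fish at day 8 with single fish left out, and from -0.074 to 0.675 in exposed and -0.278 to 0.197 in control fish at day 14, where it reversed in each group once (-0.074 without exposed fish 5, 0.197 without control fish 9). Alternatives for correlations with same-description entries were chosen after seeing the data. Of 3511 values for 77 single genes and relations, 38 lost a call, 30 gained one (LOC106607192, LOC106601269, LOC106571450, LOC106583951 and LOC106574545, at day 8), 3 moved and 3440 did none of these. Values of entries with no call turned sign 95 times, in 18 of the results; LOC106597386 at day 8 was at 0.40 in the fit reported and the others between -0.059 and 0.11.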
